A study of Mus musculus with 9 samples.

Results

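The promoters described here belong to 36 genes of the insulin, PI3K and mTOR signalling pathway, measured by chromatin accessibility in mouse blood progenitors that carried Snai1 and in progenitors that carried an empty vector. They come from a list of 38 genes, of which Pik3ca and Pik3r1 had no window in the authors' deposited promoter table; 10188 genes had one in all. A window was given the gene whose annotated 5' end lay within 1000 bp of the window's start position on the same strand, or otherwise the single gene that spans it, and each of the 36 genes had 1 window under this rule. The group was chosen because the windows of Irs2 and Pde3b showed very large changes in the comparison reported here. The values of both genes, and the counts over the group, are therefore descriptions of this table and are not evidence about the pathway. The other 34 genes were listed for their place in the pathway, with earlier results of these data known.

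Accessibility was measured by ATAC-seq, which uses a transposase to insert sequencing adapters into open DNA. The cells were HPC7, a hematopoietic progenitor line of the mouse that is kept in stem cell factor. Cells carried the MIG retroviral vector with wildtype, FLAG-tagged Snai1 (called Snai1 here) or the same vector with no insert (EV), with 3 libraries in each group; the last 3 libraries carried the mutant mut5Snai1, which was not analysed here. Snai1 is a repressor with zinc fingers that binds E-box DNA and is best known from epithelial cells that turn mesenchymal. The authors' deposited table held 1 mean per group and window, given as a log2 concentration, the log2 of the normalized read number. It held no value per library, so no replicate can be shown, and the authors' p-values and FDR are given as they stand. The labels name libraries and not separate transductions, so those p-values may measure technical spread. All groups were 1 cell line kept in culture, and the Snai1 level of the transduced cells was not measured in these data. Of 14 progenitor marker genes, 13 had a promoter window (Erg had none), against 2 of 9 fibroblast and 0 of 8 epithelial marker genes. The authors' deposited table called 4 of the 13 progenitor genes higher in Snai1 (Tal1 0.41, Myb 0.26, Gata2 0.25 and Lyl1 0.21 log2). It called 2 lower (Runx1 -0.61 and Cd34 -0.39 log2), and the fibroblast gene Fap higher (0.38 log2). The Tal1, Gata2 and Fap windows lay 1385, 4773 and 1488 bp inside the gene. Of all genes, 19.6% were called higher and 10.3% lower. With the median change of the surrounding stretch of chromosome subtracted, 1 progenitor gene was higher and 0 were lower, and neither fibroblast gene passed. By that measure 4.75% of all genes were higher and 7.76% lower. The part of these marker changes in the results was not tested.

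Insulin and insulin-like growth factors bind receptor tyrosine kinases that phosphorylate the Irs adaptors, which in turn recruit PI3K to the membrane. PI3K makes a lipid messenger that brings the kinase Akt to the membrane, and Akt then acts on glycogen synthase kinase, forkhead factors, the Tsc complex and the phosphodiesterase Pde3b. The Tsc complex restrains the GTPase Rheb, and Rheb activates the mTOR kinase in the complex mTORC1, which drives protein synthesis through the S6 kinases and the eIF4E-binding proteins. In blood progenitors the same PI3K and Akt steps lie downstream of Kit, the receptor for stem cell factor.

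Nearly all of the 36 promoters had close levels in Snai1 and EV cells, and Irs2 and Pde3b stood far from the others in opposite directions. Levels are compared between genes only among windows of the same width, because the table's windows were 2001 bp for genes on the plus strand and 1101 bp for genes on the minus strand. Mean log2 concentrations over both groups ran from 9.02 to 13.54 for the 18 pathway genes with the wider window (median 10.89, against 11.02 for all genes of that width). For the 18 genes with the narrower window they ran from 7.67 to 12.21 (median 10.95, against 10.58). The window at Gsk3b had the highest mean level of all 5251 windows of its width. Outside Irs2 and Pde3b the largest change was 0.48 log2 in size, a 1.39-fold difference.

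**Figure D1:**
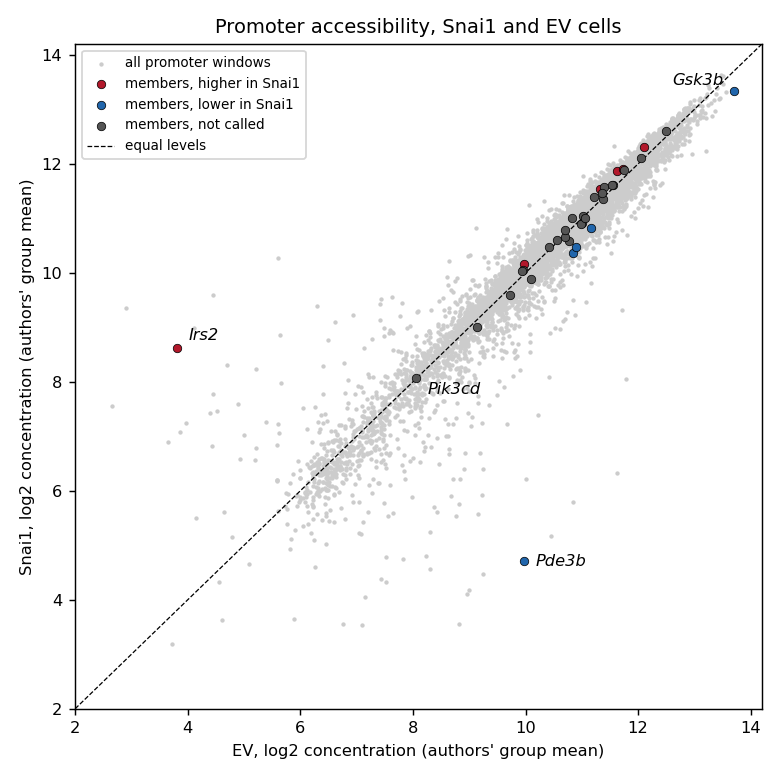
Log2 concentration of each promoter window in Snai1 cells (vertical axis) and in EV cells (horizontal axis), as the authors' group means. Grey points are all windows and coloured points the 36 pathway genes, by the authors' call at FDR 0.05. Irs2 (8.62 in Snai1, 3.81 in EV) and Pde3b (4.72 in Snai1, 9.98 in EV) lie far from the dashed line of equal levels, and the other 34 lie along it.

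Irs2, the adaptor that couples the insulin and IGF receptors to PI3K, had an open promoter window in Snai1 cells and almost no signal in EV cells. In the authors' deposited table the window (mm10, chromosome 8, 11008330 to 11009430) had a log2 concentration of 8.62 in Snai1 and 3.81 in EV, or 393 normalized reads in Snai1 and 14 in EV. Its start position was 499 bp inside the annotated 5' end. The change was 4.81 log2, 28.05-fold, with an implied SE of 0.275 (worked back from the authors' p, as the change over the matching normal deviate). Of the 5020 windows of that width, 5, Irs2 included, had as low a level in EV. The Snai1 level was still modest, since 10.0% of those windows were as low or lower in Snai1. Over all 10271 windows the change ranked 5th among increases, and 6 windows rose by 4 log2 or more. In bulk libraries a change in all cells and a change in part of the cells cannot be told apart.

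Pde3b, the phosphodiesterase through which insulin and Akt lower cyclic AMP in fat and liver cells, had the opposite pattern. In the authors' deposited table its window (chromosome 7, 114414254 to 114416254, start position 32 bp inside the annotated 5' end) had 4.72 in Snai1 and 9.98 in EV, or 26.4 normalized reads in Snai1 and 1010 in EV. The change was -5.26 log2, 38.32-fold lower, with an implied SE of 0.184. In Snai1 only 4 of the 5251 windows of that width, Pde3b included, were as low, whereas in EV 18.3% were as low or lower. The change ranked 4th among decreases, and 8 windows fell by 4 log2 or more.

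The nearest other promoter windows did not share these changes. Within 500 kb of Irs2 the authors' deposited table held 2 windows, Rab20 at -0.26 (FDR 0.171) and Naxd at 0.25 (FDR 0.00809). Within 1 Mb there were 5, between -0.26 and 0.25, all on 1 side of Irs2. Near Pde3b, Copb1 and Psma1, the 2 windows within 500 kb, had changes of 0.09 and -0.04 (FDR 0.43 and 0.716). Far1, at 901.4 kb from Pde3b, had 0.27 (FDR 0.0051). The closest of these windows lay 470.1 kb from Irs2 and 139.1 kb from Pde3b, so the extent of either change along the chromosome was not measured.

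**Figure D2:**
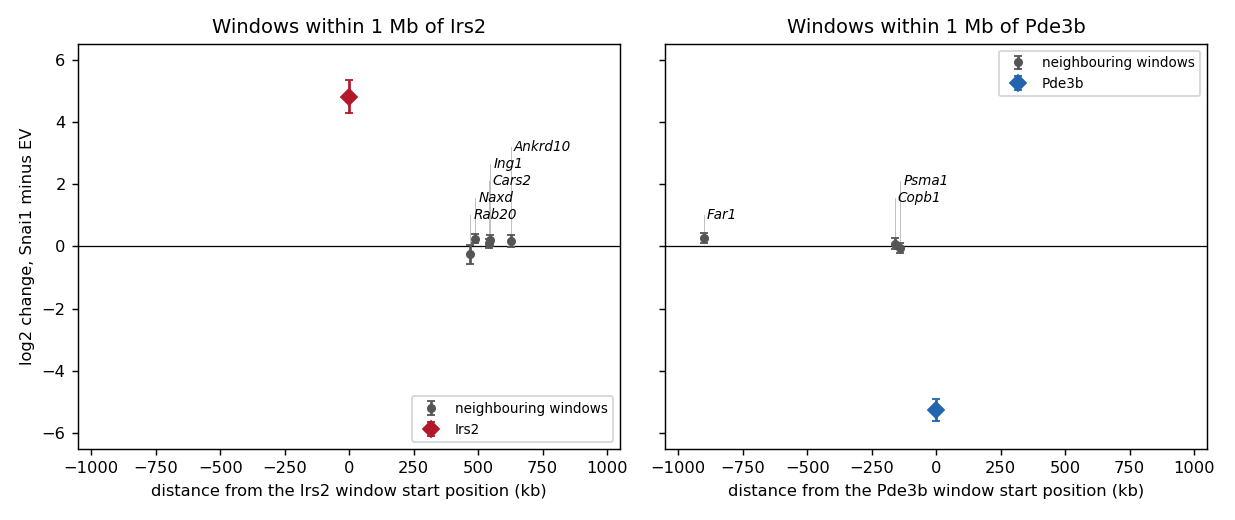
Log2 change, Snai1 minus EV, of the windows within 1 Mb of Irs2 (left) and Pde3b (right), against distance from the gene's own window in kb; bars are 95% intervals from the implied SE. The Irs2 window is at 4.81 and the Pde3b window at -5.26, while the 5 and 3 neighbouring windows lie between -0.26 and 0.27.

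Promoter sequence is shown for Irs2, which gained accessibility, for Igf1r, called lower, and for Pik3r4 and Inpp5d, called higher as deposited. Igf1r was also rich in G and C, whereas Pik3r4 and Inpp5d contrast with Irs2 in base composition. Each is the 250 bases before the RefSeq start (GRCm38.p6), written 5' to 3' on the gene's strand, with every CANNTG hexamer, the general E-box, in capitals. They lie at chr8:11008930-11009179 (minus strand), chr7:67952007-67952256, chr9:105642745-105642994 and chr1:87620062-87620311 (all plus strand).
Irs2: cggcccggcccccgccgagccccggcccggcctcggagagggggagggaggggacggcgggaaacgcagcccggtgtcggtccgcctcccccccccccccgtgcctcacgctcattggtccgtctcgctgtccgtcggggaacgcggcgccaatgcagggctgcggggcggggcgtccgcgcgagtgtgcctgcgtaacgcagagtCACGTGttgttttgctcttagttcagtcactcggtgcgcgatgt
Igf1r: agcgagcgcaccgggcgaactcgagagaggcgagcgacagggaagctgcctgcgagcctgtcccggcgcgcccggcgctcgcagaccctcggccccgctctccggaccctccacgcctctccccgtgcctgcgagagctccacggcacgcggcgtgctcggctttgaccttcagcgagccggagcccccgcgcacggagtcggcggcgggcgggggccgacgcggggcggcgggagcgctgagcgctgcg
Pik3r4: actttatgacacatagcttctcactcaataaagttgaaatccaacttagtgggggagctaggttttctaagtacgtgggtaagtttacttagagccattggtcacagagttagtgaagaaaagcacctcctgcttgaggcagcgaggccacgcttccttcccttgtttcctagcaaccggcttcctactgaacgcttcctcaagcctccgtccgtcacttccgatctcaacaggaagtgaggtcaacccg
Inpp5d: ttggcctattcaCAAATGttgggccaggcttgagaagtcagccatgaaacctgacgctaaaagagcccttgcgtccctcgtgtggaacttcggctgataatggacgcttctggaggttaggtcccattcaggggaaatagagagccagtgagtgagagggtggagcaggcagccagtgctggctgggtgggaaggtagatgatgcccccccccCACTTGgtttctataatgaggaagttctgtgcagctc
The Irs2 stretch was 72.8% G and C with 34 CpG dinucleotides and held 1 E-box, CACGTG, which begins 44 bases before the start. Igf1r was 77.6% G and C with 42 CpG, Pik3r4 48.8% with 9, and Inpp5d 54.4% with 5. Inpp5d held CAAATG and CACTTG, and the other pair held no E-box in this stretch. No RefSeq promoter entry was found for Pde3b, Insr, Eif4ebp1 or Rps6kb2.

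The letters CAGGTG, the E-box form that Snai1 binds, were rare in these promoters. In the 300 bases from 250 before to 50 after the start, 30 of the 36 genes had a RefSeq promoter lying inside their window. On either strand CAGGTG was found in 1 of the 30 (3.33%), against 16% of the 8043 promoters of all genes matched in the same way. CANNTG, which includes CAGGTG, was found in 15 of 30 (50.0%), against 61.3%. TGTTTAC, which forkhead factors bind, was found on either strand in 2 of 30 (6.67%), against 2.41%. The CAGGTG match was in Pik3r4, from base 31 after the start, and the TGTTTAC matches were in Mapkap1, from base 99 before the start, and in Stk11, from base 17 after it. These 3 sites are given with their flanking bases, the motif in capitals, because they are the only matches among the 30 promoters (chr9:105643013-105643042, chr2:34406660-34406689 and chr10:80115799-80115828, all plus strand).
Pik3r4 site: cagcgtttgccgCAGGTGaagtcgtcttcc
Mapkap1 site: ttacacttgaagGTAAACAgaagttggtta
Stk11 site: cggcgcagggcgGTAAACAagatggcggcg
The median G and C share was 64.8% in the 30 promoters, against 61.3% in all, and the median observed over expected CpG ratio 0.92, against 0.80. A match is a run of letters and was not tested as a binding site.

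Among the receptors and adaptors, both insulin-family receptors had less accessible promoters in Snai1 cells. In the authors' deposited table Igf1r, the receptor for insulin-like growth factor 1 (chromosome 7, 67951257 to 67953257, at the annotated 5' end), had 10.47 in Snai1 and 10.89 in EV. It fell by 0.42 log2 (implied SE 0.076, FDR 5.89e-07). Insr, the insulin receptor (chromosome 8, 3279517 to 3280617), had 10.37 in Snai1 and 10.84 in EV in the same table and fell by 0.48 log2 (FDR 0.0363). Its implied SE, 0.186, was more than that of any other pathway gene except Irs2, against a median of 0.083 over all genes, so the Insr change is less certain than its size. The adaptors below the receptors did not pass: Grb2, which links receptors to Ras, had -0.10 (FDR 0.385), Sos1, the exchange factor for Ras, 0.06 (FDR 0.688) and Shc1, which recruits Grb2, -0.13 (FDR 0.409) in the authors' deposited table. Ptpn1, the phosphatase that switches the insulin receptor off, had -0.03 (FDR 0.768). The Shc1 and Ptpn1 windows lay 3070 and 1577 bp inside the gene, each exactly at the start of another RefSeq promoter of that gene.

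The PI3K subunits differed little between the groups. Pik3r4, the regulatory subunit of the class III kinase that acts in endosomes and autophagy, had 10.17 in Snai1 and 9.98 in EV and, per the authors' deposited table, rose by 0.20 log2 (implied SE 0.082, FDR 0.0487), just inside the threshold. Pik3cb, the beta catalytic subunit, had 10.59 in Snai1 and 10.78 in EV, a change of -0.19 just outside it (FDR 0.0578). Pik3cd, the delta catalytic subunit of white blood cells, was level at 8.07 in Snai1 and 8.06 in EV (95% interval of the change -0.27 to 0.29). Its window had the lowest mean level of the 18 narrower windows apart from Irs2 and lay 937 bp inside the annotated 5' end. Pik3r2, the beta regulatory subunit, had 0.12 (FDR 0.189) in the authors' deposited table.

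The inositol 5-phosphatases remove a phosphate from the PI3K product. Inpp5d, the blood-cell form known as SHIP1, had 11.54 in Snai1 and 11.33 in EV and, per the authors' deposited table, rose by 0.21 log2 (implied SE 0.078, FDR 0.0294). Inppl1, the widely expressed form SHIP2, had 9.59 in Snai1 and 9.72 in EV, a change of -0.13 (FDR 0.308).

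At the level of Akt and its targets, calls as deposited went both ways, and related genes lay on opposite sides of no change. Akt1 (chromosome 12, 112674176 to 112675276) had 10.83 in Snai1 and 11.16 in EV in the authors' deposited table and fell by 0.33 log2 (implied SE 0.075, FDR 0.000131). Akt2, the form most tied to insulin responses, had 11.58 in Snai1 and 11.40 in EV, a change of 0.18 that did not pass (FDR 0.0957). The glycogen synthase kinase genes also lay on opposite sides as deposited. Gsk3b (chromosome 16, 38088001 to 38090001) had 13.34 in Snai1 and 13.71 in EV in the authors' deposited table and fell by 0.38 log2 (implied SE 0.117, FDR 0.00649). Gsk3a had 12.31 in Snai1 and 12.10 in EV and rose by 0.21 log2 (implied SE 0.068, FDR 0.0104). Akt1 and Gsk3b both lie in stretches of chromosome whose median change was also below 0 (-0.415 and -0.38), so neither stood below its surroundings. With the stretch median subtracted, Akt1 had 0.085, Akt2 0.13, Gsk3b 0.00 and Gsk3a 0.16, and none of them passed.

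Of the forkhead factors that Akt keeps out of the nucleus, Foxo3 had 11.86 in Snai1 and 11.63 in EV and, per the authors' deposited table, rose by 0.22 log2 (implied SE 0.073, FDR 0.0134). Foxo1 had 10.66 in Snai1 and 10.71 in EV, a change of -0.04 (FDR 0.673). Pdpk1, the kinase that activates Akt, had 0.07 (FDR 0.515) at a window 14025 bp inside the gene, which is the start of another of its RefSeq promoters.

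The mTOR complexes and their outputs showed small differences. Of 9 genes of the complexes, 1 rose and 8 did not pass (19.6% of all genes were called higher and 10.3% lower), with changes from -0.20 to 0.19 in the authors' deposited table. Rheb, the GTPase that activates mTORC1, had 11.91 in Snai1 and 11.73 in EV and rose by 0.19 log2 (implied SE 0.071, FDR 0.029). Its brakes had 11.04 in Snai1 and 11.02 in EV (Tsc1, change 0.01) and 11.39 in Snai1 and 11.22 in EV (Tsc2, change 0.18, FDR 0.0582). Mtor, the kinase itself, had 11.61 in Snai1 and 11.53 in EV, a change of 0.09 (95% interval -0.06 to 0.24). Rptor, which defines mTORC1, had -0.20 (FDR 0.0765) and Rictor, which defines mTORC2, 0.04 (FDR 0.689) in the authors' deposited table. The shared subunit Mlst8 had -0.10, the mTORC2 subunit Mapkap1 0.09 and the mTORC1 inhibitor Akt1s1 0.09, none of which passed.

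None of the 4 genes of mTORC1 output passed in the authors' deposited table, with FDR between 0.0809 and 0.755. Of all genes 29.9% passed, and nothing is read from a count over so few genes. The S6 kinase genes Rps6kb1 and Rps6kb2 had changes of 0.18 and 0.09, and the translation repressor genes Eif4ebp1 and Eif4ebp2 had 0.10 and -0.04. The energy sensors did not pass either: Stk11, the kinase Lkb1, had 0.05 (FDR 0.632) and Prkaa1, the AMPK alpha 1 subunit, 0.10 (FDR 0.427).

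Shared windows tie some of these values to a neighbouring gene. For 5 of the 36 genes, the window overlapped that of a gene on the other strand, so the same reads count for both. Tubd1, whose window covers all 1101 bp of the Rps6kb1 window, was called higher in the authors' deposited table (0.24, FDR 0.0198) where Rps6kb1 was not (0.18, FDR 0.0809). BC031361, sharing 842 bp with Gsk3b, fell by 0.42 log2 (FDR 0.000497). Nthl1, 2010320M18Rik and Tbc1d17, which overlap Tsc2, Pik3r2 and Akt1s1, had 0.16, 0.13 and 0.09, and like those genes they did not pass.

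**Figure D3:**
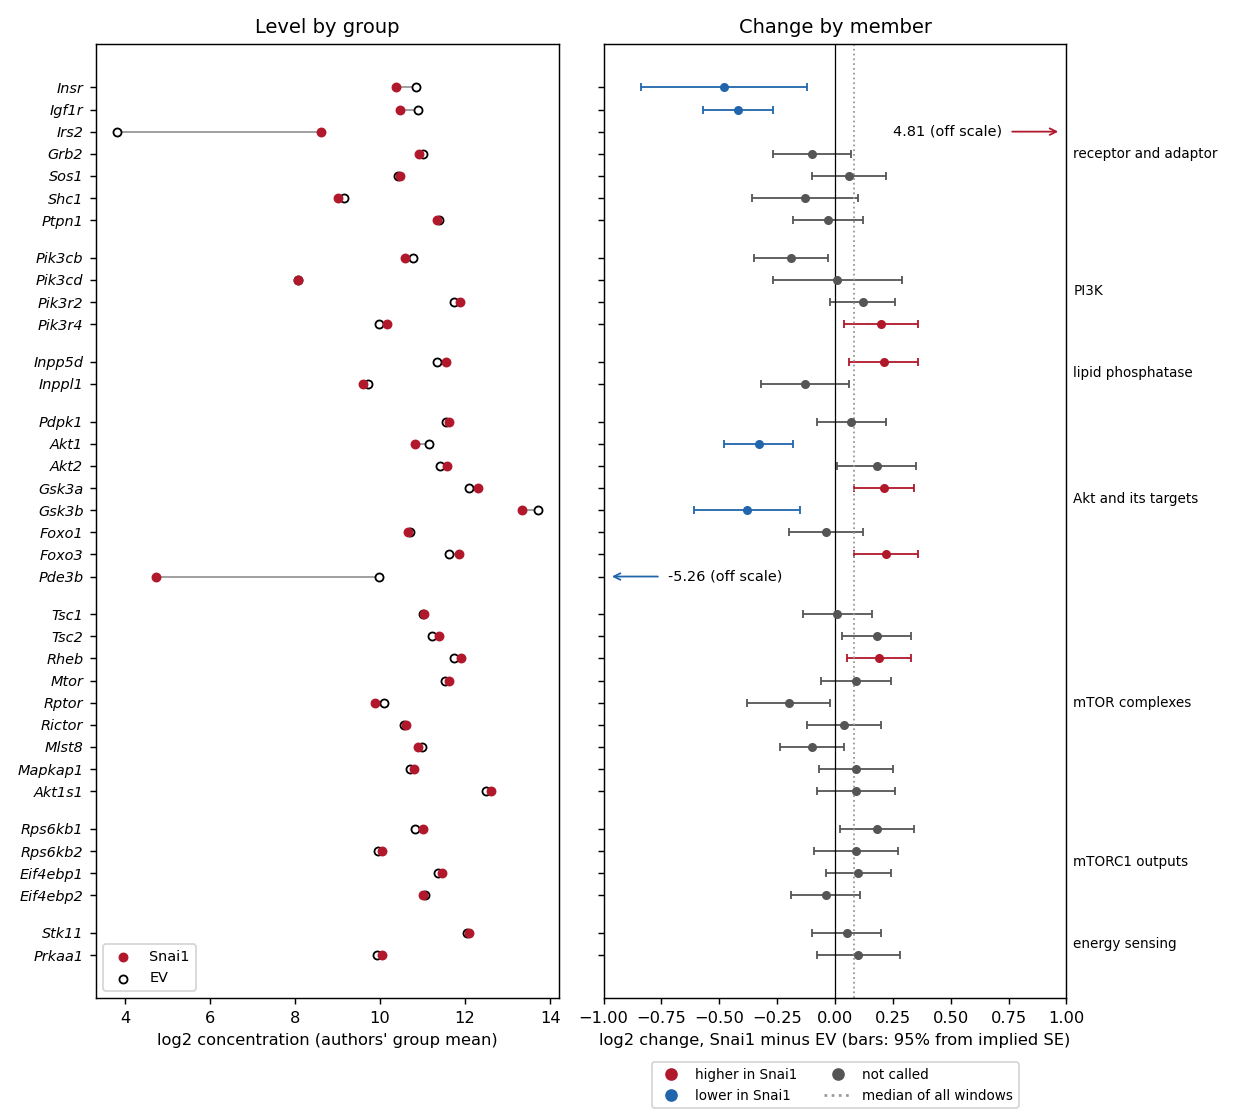
Left, log2 concentration of each pathway gene's window in Snai1 (filled) and EV (open), as the authors' group means. Right, the log2 change, Snai1 minus EV, with 95% intervals from the implied SE, coloured by the authors' call at FDR 0.05; Irs2 and Pde3b are off the scale at 4.81 and -5.26, and the other 34 genes lie between -0.48 and 0.22.

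Counted together, 11 of the 36 promoters (30.6%) passed FDR 0.05 in the authors' deposited table, against 29.9% of all genes with a window. In Snai1, 6 were higher, where 19.6% of all genes were, and 5 were lower, where 10.3% were. The median change of the 36 genes was 0.055 log2, against 0.08 for all genes. At FDR 0.01, which 18.9% of all genes passed (11.2% higher and 7.74% lower), Irs2 was higher and Pde3b, Igf1r, Akt1 and Gsk3b were lower. The share called thus lay near that of all genes, and the group was chosen from this same comparison, so nothing is read from the count. Of the 34 genes other than Irs2 and Pde3b, 31 had a 95% interval that lay wholly within 0.5 log2 of no change. Insr, Igf1r and Gsk3b reached beyond that. Genes changed by less than 0.1 log2 took their SE from windows with similar accessibility. The share of all genes with such an interval was not counted, so nothing is read from the 31. Quartiles of the change were -0.1 and 0.115 for these 34 genes, against -0.05 and 0.18 for all genes.

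The increases of small size depended on where the centre of the data was set. With the median change of all windows subtracted and the windows tested again with their implied SE and Benjamini-Hochberg adjustment, 1 pathway gene was higher and 7 were lower. By that measure 21.0% of all genes passed, 7.24% higher and 13.8% lower. Pik3r4, Inpp5d, Gsk3a, Foxo3 and Rheb no longer passed, and Pik3cb and Rptor were then lower. With the median of the window's own stretch of chromosome subtracted instead, 1 gene was higher and 5 were lower, where 12.5% of all genes passed, 4.75% higher and 7.76% lower. The 5 were Pde3b, Igf1r (-0.47), Insr (-0.54), Pik3cb (-0.29) and Mlst8 (-0.20). Akt1 had 0.085 and Gsk3b 0.00 by that measure. Irs2 (4.68) and Pde3b (-5.38) changed little with the centre.

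**Figure D4:**
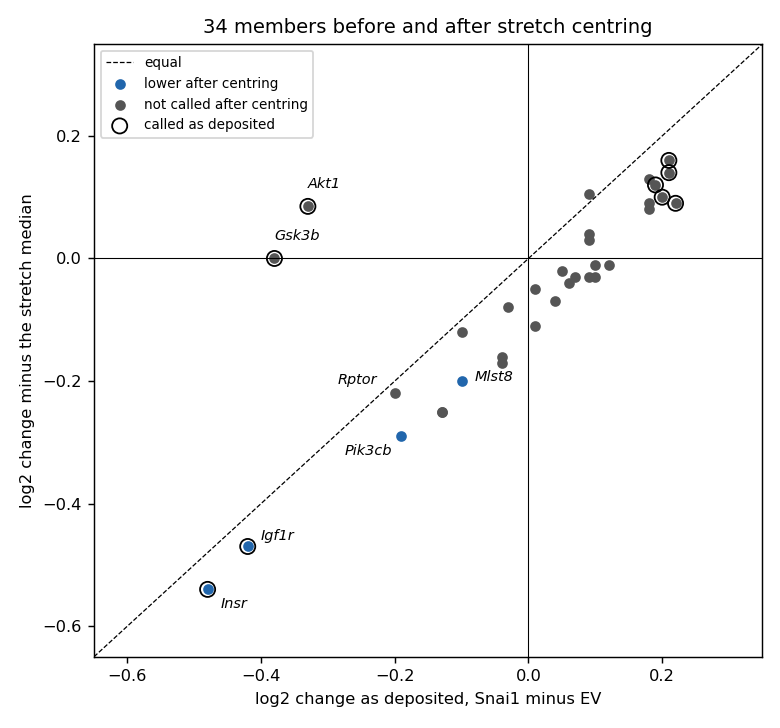
Log2 change minus the median of the window's stretch of chromosome (vertical axis) against the log2 change as deposited (horizontal axis), both Snai1 minus EV, for the 34 pathway genes other than Irs2 and Pde3b. Ringed genes passed FDR 0.05 as deposited, and blue ones were lower after centring; Akt1 and Gsk3b move to 0.085 and 0.00, while Igf1r and Insr stay at -0.47 and -0.54.

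Other genes of the same pathways, taken from 7 further lists, were called in both directions. Of 169 listed genes, 129 had a window, and the authors' deposited table called 20 higher and 16 lower, and 93 did not pass (27.9% called, against 29.9% of all genes, 19.6% higher and 10.3% lower; median 0.05). With the median of all windows subtracted 13 were higher and 19 lower, where 7.24% of all genes were higher and 13.8% lower. With the stretch median subtracted 10 were higher and 10 lower, where 4.75% of all genes were higher and 7.76% lower. Nothing is read from the share called in any of the lists. The lists were written with earlier results of these data known. Kit had 11.49 in Snai1 and 11.57 in EV in the authors' deposited table (FDR 0.349), and Irs1, the closest relative of Irs2, had no window.

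Of 18 receptor adaptors and receptor brakes, the authors' deposited table called 3 higher and 4 lower (median -0.03). The share called was 38.9%, against 29.9% of all genes. Sh2b2, an adaptor of the insulin receptor, had 8.11 in Snai1 and 9.77 in EV and fell by 1.66 log2 (implied SE 0.118, FDR 8.18e-43) at a window 1655 bp inside the gene. Sh2b3, the adaptor Lnk that restrains Kit and cytokine signalling in blood stem cells, fell by 0.47 (FDR 4.29e-06). The Sh2b3 window lay 1541 bp inside the gene, and that of Socs2 1109 bp. Socs2, an inhibitor of cytokine signalling, had 8.69 in Snai1 and 8.03 in EV in the authors' deposited table and rose by 0.65 log2 (FDR 3.11e-06). Cblb, a ubiquitin ligase that damps receptor signalling, fell by 0.88 (FDR 1.28e-14), which is also close to the median of its stretch of chromosome 16, -0.875.

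Of 20 genes listed as PI3K and phosphoinositide enzymes, the authors' deposited table called 5 higher and 2 lower (median 0.035). That was 35% called, against 29.9% of all genes. Mtmr10, of the myotubularin family, had 10.27 in Snai1 and 5.61 in EV. Its change of 4.66 log2 (implied SE 0.342, FDR 4.15e-40) was close in size to that of Irs2. Inpp4b, which removes the 4-phosphate of a PI3K product, had 10.36 in Snai1 and 9.51 in EV and rose by 0.84 log2 (FDR 4.04e-18). Mtmr2, a phosphatase of the myotubularin family, was higher by 0.24 as deposited (FDR 0.00358). It did not pass with either median subtracted (0.14 with that of its stretch). Synj1, an inositol 5-phosphatase of nerve endings, fell by 0.35 (FDR 8.05e-06) in a stretch with a median of -0.39. The Mtmr2 and Synj1 windows lay 1921 and 2632 bp inside the gene.

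Of 17 Akt kinases, brakes and substrates, the authors' deposited table called 0 higher and 3 lower (17.6% called, against 29.9% of all genes; median -0.06). With the stretch median subtracted, 0 were higher and 1 was lower. Trib2, a pseudokinase of the tribbles family, had 8.70 in Snai1 and 9.86 in EV and fell by 1.16 log2 (implied SE 0.12, FDR 2.76e-20). Ppp2r5c, a regulatory subunit of protein phosphatase 2A, fell by 0.54 and Phlpp1, which dephosphorylates Akt, by 0.31, both in shifted stretches (medians -0.415 and -0.24); neither passed with the stretch median subtracted.

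Of 29 genes of nutrient sensing and mTOR partners, the authors' deposited table called 3 higher and 4 lower (median 0.09). The share called was 24.1%, against 29.9% of all genes. Castor1, the arginine sensor of mTORC1, had 8.98 in Snai1 and 9.79 in EV and fell by 0.81 log2 (implied SE 0.114, FDR 4.47e-11), and its relative Castor2 fell by 0.47 (FDR 2.76e-05). Deptor, an mTOR inhibitor, fell by 0.38 (FDR 0.00387) at a window 21119 bp inside the gene, and Lamtor2, of the complex that anchors mTORC1 to lysosomes, was higher by 0.20 as deposited (FDR 0.0118) but did not pass with either median subtracted (0.08 with that of its stretch). Of 20 further mTORC1 outputs, the authors' deposited table called 4 higher and 2 lower (median 0.06), or 30% against 29.9% of all genes. The transcription factor gene Mitf (0.38), the elongation factor kinase gene Eef2k (0.34) and the translation factor gene Eif4g2 (0.32) rose, and Eif4g1, the scaffold of the cap-binding complex, fell by 0.33 in a stretch with a median of -0.38.

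Of 11 AMPK genes, the authors' deposited table called 2 higher and 0 lower: Cab39l, a scaffold of the Lkb1 kinase, by 0.38 (FDR 2.96e-07) and the subunit gene Prkag1 by 0.31 (FDR 0.000516), or 18.2% called, against 29.9% of all genes. Prkag1 did not pass with the stretch median subtracted (0.20). Around Pde3b, in the cyclic AMP pathway, 3 of 14 genes rose and 1 fell (28.6% called, against 29.9% of all genes). The regulatory subunits of protein kinase A, Prkar2a (0.38, FDR 6.25e-05) and Prkar2b (0.30, FDR 0.00131), and the adenylyl cyclase gene Adcy7 (0.35) rose in the authors' deposited table, and another cyclase gene, Adcy9, fell by 0.53 (FDR 0.00016) in a stretch with a median of 0.32. Prkar2b did not pass with the stretch median subtracted (0.17). The Adcy7 and Adcy9 windows lay 16876 and 16738 bp inside the gene. No other gene of that list changed by more than 0.53 log2, against the -5.26 of Pde3b.

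**Figure D5:**
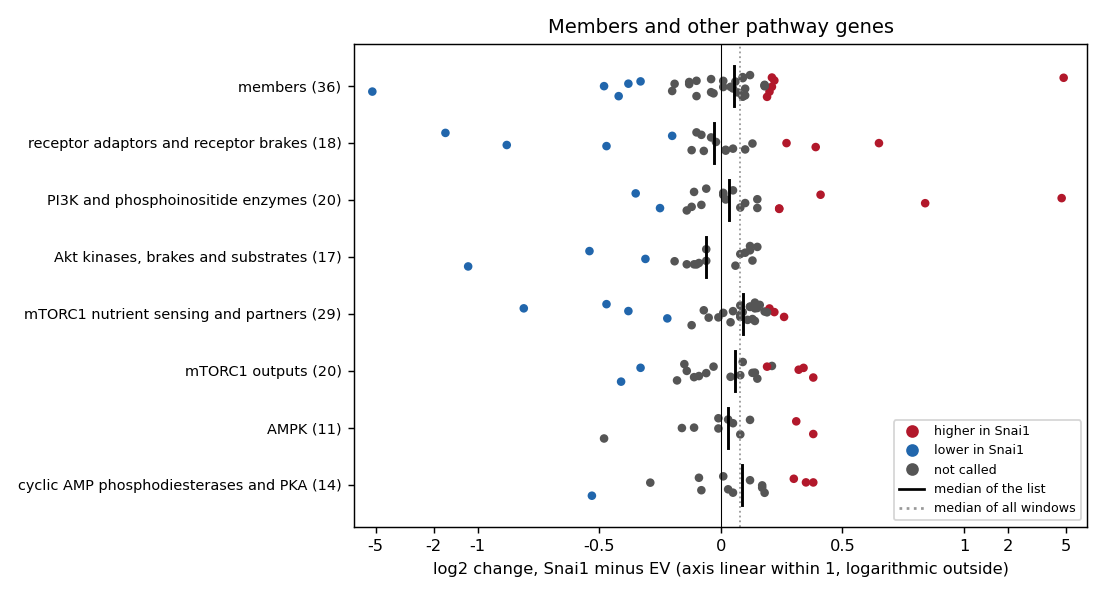
Log2 change, Snai1 minus EV, of the 36 pathway genes (top row) and of 7 further lists, with the number of genes with a window in brackets; the axis is linear within 1 and logarithmic outside it. Points are genes coloured by the authors' call, and black bars are list medians, which lie between -0.06 and 0.09; Irs2 and Mtmr10 stand at the far right and Pde3b at the far left.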

How the data were processed

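ATAC-seq was made from HPC7 cells in 3 groups of 3 libraries (9 in all). The submitters' processing notes name DiffBind, Picard, Bowtie2 and fastp, and mm10 as the build. Not given in the sources used here: scaling, counting rule, handling of the Tn5 cut, tool versions. The columns of the deposited table are, per the file headers, a log2 concentration per group, a log2 fold, a p-value and an FDR. After 3 repeated rows were dropped it held 10271 windows. The log2 fold ran EV minus Snai1 and its sign was turned. The authors' concentration over both groups equalled the log2 of the mean of both linear values within 0.009. The number of columns of values per library was 0, so no count model was run, and depth is unknown.

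Windows were matched to RefSeq genes (GRCm38.p6), with the strand taken from the window width and from RefSeq promoters. The implied SE is the change over the normal deviate that matches its p; windows changed by less than 0.1 log2 took the median SE of windows with similar accessibility (20 bins). Stretches came from an optimal partition of changes along each chromosome. It used windows at a log2 concentration of 9 or more, 15 or more to a stretch, changes limited to 0.75 from the centre and penalty factor 4. Chromosome Y, with 3 windows, was kept whole. Of 51 stretches, 14 held 15 or more windows and lay 0.2 log2 or more from the median of all windows. Retests took the centred change over the implied SE, with Benjamini-Hochberg adjustment over all windows (numpy 2.4.6, pandas 2.3.3, scipy 1.17.1). Both were checked on simulated data with a whole chromosome shifted and normal errors drawn from the implied SE. That check therefore cannot judge the implied SE itself, and breaks within a chromosome were not simulated. The genes and lists were chosen with earlier results of these data known. Named genes were all genes of the group, per further list the called genes of smallest FDR (4 at most), and Irs1 and Kit; 1 further gene that the rule names is not reported here; the implied SE and FDR are given where they bear on the result. No FDR is printed for Irs2 and Pde3b, which were chosen for their change.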

Additional observations from a re-analysis of the deposited data

How the results depend on the processing

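Each of the 36 genes had 1 window. Taking the window nearest the annotated start, or that with the smallest p, could therefore only give the same 36 windows. With the median of all windows subtracted, the count of higher pathway genes was 1 against 6 as deposited. With the stretch median subtracted it was also 1, and at FDR 0.01 it was 1. The share of all genes called higher fell too, from 19.6% as deposited to 7.24% and 4.75% with these medians subtracted. At FDR 0.01 it was 11.2%. The median change of the 36 genes was -0.03 with the stretch median subtracted, and the Akt1 change turned to 0.085 and no longer passed. Among the 129 further pathway genes, 13 were higher and 19 lower with the median of all windows subtracted (7.24% and 13.8% of all genes). With the stretch median subtracted 10 were higher and 10 lower (4.75% and 7.76% of all genes). The median change of the windows near Irs2 was 0.18 over 1 Mb, against -0.005 over 500 kb. Restricting windows to log2 concentrations of at least 9, or to 100 bp from an annotated 5' end (25 genes), drops genes (Irs2 and Pik3cd in the first case) and adjusts p again over the windows left; it cannot change a direction, so it says nothing of stability. No paired analysis was possible because the deposited values are group means without libraries, and leaving out single libraries was not run for the same reason. Among the 36 genes the implied SE was highest at Irs2 (0.275), Insr (0.186), Pde3b (0.184) and Pik3cd (0.144), against a median of 0.083 over all windows.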
